A study of Mus musculus with 31 samples.

Results

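The combined action of 2 thyroid hormones, T3 and T4, was examined gene by gene in the liver of mouse pups that had neither a thyroid nor the enzymes that activate T4 in most tissues. Of 31 liver RNA sequencing libraries in the series, 26 belong to the 4 groups of this 2 by 2 design: T3+T4 (7 livers), T3 alone (6), T4 alone (8) and vehicle (5). Each library carries an animal number of its own. The pups were C57Bl/6J, 14 days old, and had been injected on alternate days from postnatal day 2. In all of them Dio1 and Dio2, which encode the type 1 and type 2 deiodinases, were knocked out, and so was Pax8 (Dio1KO/Dio2KO/Pax8KO), a transcription factor without which the thyroid does not form. A further 5 livers, from Dio1KO/Dio2KO pups heterozygous for Pax8 and given vehicle (control), are in no comparison but share the estimate of spread. Doses were not given in the labels used here.

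T4 (thyroxine) is the main product of the thyroid, and T3 binds the nuclear thyroid hormone receptors more tightly. The deiodinases knocked out here remove iodine from T4 and so produce T3. The receptors sit on hormone response elements built from copies of the hexamer AGGTCA, and in liver they act on lipogenesis, cholesterol handling, energy use and the Dio1 gene itself. Where both hormones reach the same receptor, the response of a gene can level off, so that a second hormone adds less than it does alone. It can also be steeper than the product of both responses.

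The interaction was computed on the log2 scale as (T3+T4 minus T3) minus (T4 minus vehicle). A value of 0 means that T4 multiplied the level by the same factor with and without T3. A negative value means that T4 had a smaller or more downward effect beside T3, and a positive value a larger or more upward one. The same number compares the effect of T3 with and without T4. Levels are in CPM, a gene's count as a share of the effective size of its library, and tests are edgeR quasi-likelihood tests with Benjamini-Hochberg adjustment (adjusted p) over all 17057 genes that passed a filter on low counts, called at 0.05.

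Library totals of the 26 libraries ran from 4383769 to 7158919 counts. Their medians were 6424333 in T3+T4, 6145942 in T3, 5298959 in T4 and 5322022 in vehicle livers, so depth was higher in the groups given T3. With library total as a covariate the T3 calls of the fit without interaction, described further on, were 744 in place of 2509. The groups were also unbalanced in other respects. By Xist and Y-linked genes, females made up 2 of 7 T3+T4, 5 of 6 T3, 2 of 8 T4 and 2 of 5 vehicle animals, and in 1 library of each of these groups a sex given in the labels differed from these genes. Animals numbered 54 to 85 made up 7 of 7 T3+T4, 6 of 6 T3, 5 of 8 T4 and 2 of 5 vehicle animals. The mean of 9 hepatocyte markers ran from 501 to 651 CPM in T3+T4, from 543 to 672 CPM in T3, from 594 to 734 CPM in T4 and from 718 to 759 CPM in vehicle livers. Every vehicle liver thus lay above every T3+T4 and T3 liver in this mean, and the part of this in the results was not tested. Some libraries also had high levels of marker genes of pancreas or skeletal muscle, with values given beside the results they touch. Whether these transcripts came from other tissue or from the liver itself was not tested. Nothing in the labels links the pups to litters, so p-values measure the spread between these animals.

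The deleted genes still received reads. Dio1 (ENSMUSG00000034785, chromosome 4, 107291465 to 107307169, mm10) had mean deposited counts of 1188 ± 286 in T3+T4 (SD, n = 7), 834 ± 353 in T3 (n = 6), 185 ± 96.0 in T4 (n = 8) and 65 ± 19.7 in vehicle livers (n = 5). Its CPM ran from 115 through a median of 195 to 245 in T3+T4, from 60.2 through 124 to 203 in T3 and from 18.8 through 28.4 to 64.5 in T4 livers, and was 7.73, 9.90, 12.6, 14.1 and 19.3 in vehicle livers. Every T3+T4 and T3 liver lay above every vehicle liver, while T4 and vehicle livers overlapped. The log2 effect of T4 on Dio1 was 0.47 ± 0.25 (SE) beside T3 (adjusted p = 0.45) and 1.44 ± 0.32 without it (adjusted p = 0.041, edgeR). The interaction of -0.97 ± 0.40 did not pass the test (adjusted p = 0.387). Pax8, whose counts stayed between 2 and 28 in the 4 groups, had an interaction of -0.75 ± 0.56 (adjusted p = 0.676), and Dio2, with counts of 4 to 47, one of -0.06 ± 0.50 (adjusted p = 0.983). The deleted parts of these genes are not given in the labels, so the counts do not check the genotypes.

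The interaction passed the test for 23 of 17057 genes, a background of 0.135%, with 17 positive (0.0997%) and 6 negative values (0.0352%). At an unadjusted p of 0.05, 1767 genes passed (10.4%), and the median over all genes was -0.007. The count of called genes ranged from 1 (without vehicle animal 37) to 39 (without T3 animal 62) when 1 library was left out. Without T4 animals 46 or 71 or T3 animals 61 or 65 it was 3 each, all negative, and the single call without vehicle animal 37 was negative too. Without T3 animal 60 it was 5, with 1 positive and 4 negative, and without T3 animal 64 it was 10. With DESeq2 41 calls were positive and 68 negative, so the excess of positive calls did not hold in all settings. Of the 23 genes, 11 encode products of the exocrine pancreas and are described apart. The other 12 divide into 6 with a negative and 6 with a positive interaction. For all 6 negative genes the effect of T4 without T3 was upward, and 4 of these effects passed the test (background 0.41%, of which 0.211% higher). Beside T3, none of the 6 effects of T4 passed it, where 2 of all genes did (0.0117%, both higher) and 2165 (12.7%) had an unadjusted p under 0.05. All 6 negative genes were higher in T3 than in vehicle livers by the test (background 6.77%), and 3 were higher in T3+T4 than in T4 livers (background 8.61%, of which 4.06% higher and 4.55% lower). These single comparisons share their libraries with the interaction and are its parts, not separate evidence.

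The strongest interaction was that of 9030619P08Rik (ENSMUSG00000053168, chromosome 15, 75427606 to 75431829, mm10), annotated as a transcribed unprocessed pseudogene. Its level ran from 80.3 through a median of 97.9 to 122 CPM in T3+T4 livers, from 62.5 through 88.3 to 105 CPM in T3 livers and from 22.5 through 46.1 to 59.5 CPM in T4 livers. In the 5 vehicle livers it was 1.21, 2.01, 2.67, 5.89 and 6.15 CPM. Either hormone alone lifted it above every vehicle liver, and the T3+T4 and T3 livers overlapped. T4 changed it by 0.21 ± 0.19 on the log2 scale beside T3 (1.15-fold, adjusted p = 0.676) and by 3.57 ± 0.28 without T3 (11.9-fold, adjusted p = 4.14e-09). The interaction was -3.36 ± 0.34 (95% interval -4.07 to -2.66, adjusted p = 1.57e-06). The product of both single effects would place the T3+T4 mean at 1026 CPM and their sum at 125 CPM, against a measured mean of 99.8 ± 14.2 CPM (SD, n = 7). On the linear scale the same contrast was -25.6 ± 9.99 CPM (SE), given as a description. Among the 23 called genes this was the only one whose call held in each of the 26 fits that left out 1 library. It lost the call among animals numbered 54 to 85 alone (-2.42, adjusted p = 0.0746). The vehicle livers in that range, animals 55 and 67, had the highest vehicle levels, 6.15 and 5.89 CPM. The part of this in the smaller value was not tested. The call was also lost without the libraries high in pancreatic or muscle markers (-3.14, adjusted p = 0.0553). As a pseudogene it may share reads with related genes, depending on how the authors assigned reads.

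Cyp3a44 (chromosome 5, 145773983 to 145805874) encodes a cytochrome P450 of the 3a family, which oxidises steroids and drugs and in adult mice is more abundant in female liver. It ran from 95.5 through 133 to 216 CPM in T3+T4 livers, from 159 through 166 to 187 CPM in T3 livers and from 31.9 through 87.4 to 146 CPM in T4 livers. Vehicle livers had 17.3, 17.4, 20.8, 21.01 and 44.9 CPM. The T3 livers were the most uniform and lay above every vehicle liver, while the T4 livers spread widely and 1 of them, animal 70, lay below the highest vehicle liver. The log2 effect of T4 was -0.23 ± 0.24 beside T3 (adjusted p = 0.72) and 1.93 ± 0.28 without T3 (adjusted p = 0.000475), with an interaction of -2.16 ± 0.36 (adjusted p = 0.0157, edgeR). The T3+T4 mean of 145 ± 42.7 CPM (SD, n = 7) lay below both the sum of the single effects, 238 CPM, and their product, 649 CPM. With sex as a covariate the interaction was -2.14 (adjusted p = 0.00977). Without vehicle animal 37 it was -2.05 and not called (adjusted p = 0.0525). Among animals numbered 54 to 85 it was -1.55 and not called (adjusted p = 0.495). Vehicle animals 55 and 67, the vehicle livers of that range, had the highest vehicle levels of this gene too. The family members Cyp3a41a (-1.95 ± 0.60, adjusted p = 0.205) and Cyp3a16 (-1.18 ± 0.40, adjusted p = 0.276) had negative values that did not pass the test. The sequences of these genes are close, so reads may be split among them.

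The promoters of Cyp3a44 and Nt5e are shown because T4 raised both genes without T3, and only 1 of the windows holds the receptor's hexamer. They cover 250 bases before and 50 after the RefSeq start (RefSeq, GRCm38.p6), at chr5:145805825-145806124 on the minus strand for Cyp3a44 and chr9:88327359-88327658 on the plus strand for Nt5e. The Nt5e window lies wholly inside the gene at the coordinates printed in the next paragraph. Absence of the hexamer there thus holds for this RefSeq start alone. Capitals mark AGGTCA on either strand.
Cyp3a44: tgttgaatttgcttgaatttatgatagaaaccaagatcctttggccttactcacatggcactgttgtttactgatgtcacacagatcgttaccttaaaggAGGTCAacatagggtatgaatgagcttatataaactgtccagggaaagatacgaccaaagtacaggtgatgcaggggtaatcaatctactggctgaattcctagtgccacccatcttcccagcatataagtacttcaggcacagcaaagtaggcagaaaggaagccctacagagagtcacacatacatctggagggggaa
Nt5e: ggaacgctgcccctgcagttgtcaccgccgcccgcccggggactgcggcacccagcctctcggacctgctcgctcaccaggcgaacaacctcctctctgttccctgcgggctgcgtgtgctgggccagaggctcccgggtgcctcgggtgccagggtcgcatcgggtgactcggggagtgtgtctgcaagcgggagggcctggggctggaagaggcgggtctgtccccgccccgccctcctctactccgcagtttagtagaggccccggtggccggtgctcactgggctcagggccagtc
The hexamer of Cyp3a44 begins 150 bases before the start. AGGTCA was found on either strand in 5340 of 32851 promoter windows of this length (16.3%), and in 3 of the 17 called genes that have an entry (Cyp3a44, Cel and Prss2). A pair of hexamers in the same direction with 4 bases between them, searched on both strands, occurred in 5 windows (0.0152%) and in none of the 17. A match is a run of letters, not a binding site.

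Nt5e (chromosome 9, 88327197 to 88372092) encodes CD73, the surface enzyme that converts AMP into adenosine. Its level ran from 181 through 218 to 233 CPM in T3+T4 livers, from 161 through 213 to 244 CPM in T3 livers and from 114 through 151 to 198 CPM in T4 livers. Vehicle livers had 72.8, 77.9, 88.1, 92.7 and 93.5 CPM. All T4 and all T3 livers lay above all vehicle livers, and the T3+T4 livers lay within the range of the T3 livers. T4 changed Nt5e by 0.02 ± 0.10 beside T3 (adjusted p = 0.958, 95% interval -0.18 to 0.22) and by 0.82 ± 0.11 without it (1.76-fold, adjusted p = 7.89e-05). The interaction was -0.80 ± 0.14 (adjusted p = 0.0268), a call lost without vehicle animal 37 (-0.83, adjusted p = 0.0525) or T3 animal 65 (-0.77, adjusted p = 0.0515). The T3+T4 mean of 211 ± 17.9 CPM lay below the 273 CPM given by the sum of the single effects.

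Sbk1 (chromosome 7, 126272619 to 126295016), a serine/threonine kinase gene, showed the same order of groups. It ran from 116 through 141 to 166 CPM in T3+T4 livers, from 101 through 125 to 171 CPM in T3 livers and from 103 through 116 to 126 CPM in T4 livers. Vehicle livers had 51.0, 56.2, 58.4, 60.0 and 79.7 CPM, below every T3+T4, T3 and T4 liver. T4 changed Sbk1 by 0.15 ± 0.11 beside T3 (adjusted p = 0.568) and by 0.90 ± 0.11 without it (adjusted p = 7.89e-05). The interaction was -0.75 ± 0.15 (adjusted p = 0.033). The call held in 13 of the 26 fits without 1 library and was lost with sex as a covariate (-0.70, adjusted p = 0.0621). Its T3+T4 mean of 143 ± 17.8 CPM (SD, n = 7) compares with 182 CPM for the sum and 241 CPM for the product of the single effects. Besides the fits without 1 library, 15 other settings were run. The calls of Cyp3a44 and Nt5e held in 10 of these and that of Sbk1 in 7. All 3 were lost among animals 54 to 85 and with acinar and muscle levels as covariates. They were also lost without the libraries high in acinar or muscle markers, separately or together. Over all settings the values ran from -2.50 to -1.55 for Cyp3a44, from -0.999 to -0.657 for Nt5e and from -0.87 to -0.59 for Sbk1.

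**Figure D1:**
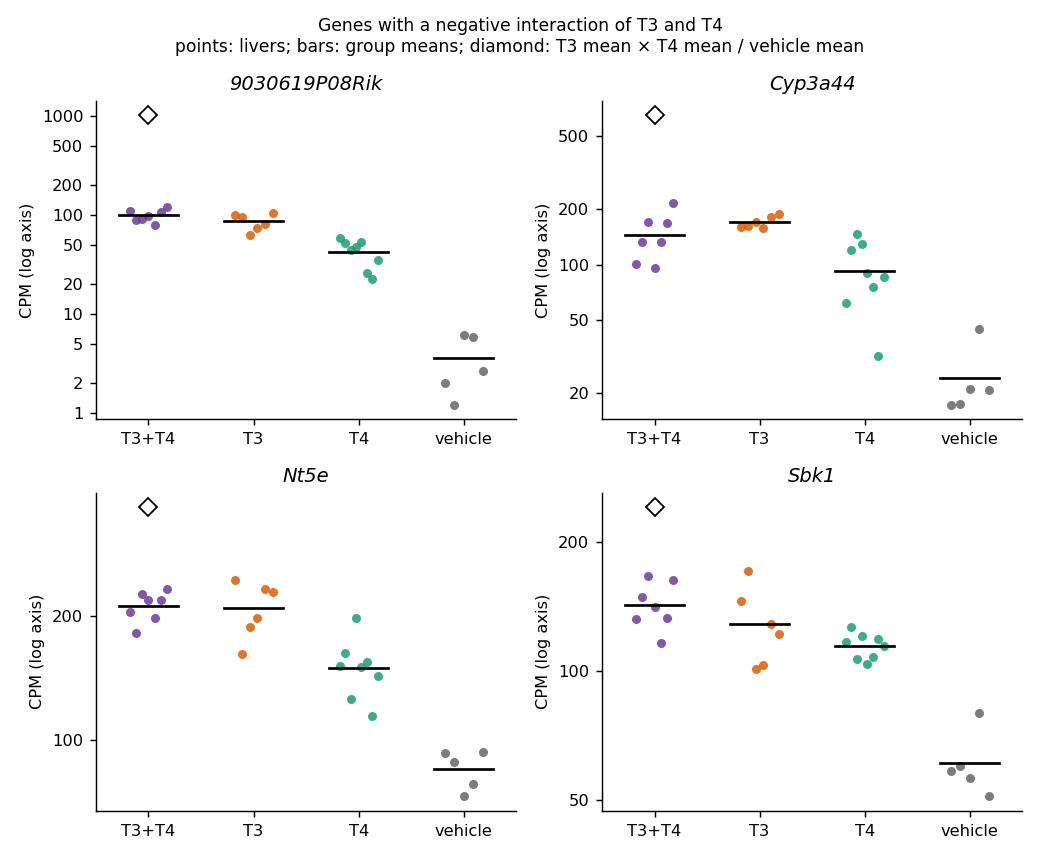
Level of 9030619P08Rik, Cyp3a44, Nt5e and Sbk1 in each liver (CPM, log axis) by group, with bars at the group means; the open diamond marks the T3+T4 level that the product of both single effects would give. The measured T3+T4 livers of 9030619P08Rik lie at 80.3 to 122 CPM, far below the diamond at 1026 CPM, and in the other 3 panels they also lie below it.

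Arl11 and Msr1 are the other negative genes, and in both the T3+T4 livers lay entirely below the T3 livers. Arl11, a small GTPase of the ADP-ribosylation factor-like family, ran from 2.20 through 2.71 to 3.23 CPM in T3+T4, from 3.63 through 4.04 to 5.32 CPM in T3 and from 1.94 through 3.04 to 5.57 CPM in T4 livers. Its vehicle livers had 1.27, 1.28, 1.66, 2.10 and 2.63 CPM. Its interaction was -1.60 ± 0.30 (adjusted p = 0.0276), made of a T4 effect of -0.64 ± 0.20 beside T3 and one of 0.96 ± 0.23 without it, neither of which passed the test (adjusted p = 0.184 and 0.0559). Msr1, the macrophage scavenger receptor, ran from 67.8 through 79.7 to 85.6 CPM in T3+T4, from 91.4 through 106 to 125 CPM in T3 and from 70.7 through 90.2 to 112 CPM in T4 livers. Its vehicle livers had 66.6, 71.7, 76.6, 89.9 and 90.8 CPM, close to the T3+T4 livers. The interaction of Msr1 was -0.66 ± 0.13 (adjusted p = 0.0319), with T4 effects of -0.44 ± 0.09 beside T3 and 0.22 ± 0.10 without it (adjusted p = 0.0537 and 0.328). Markers of Kupffer cells, the macrophages of the liver, gave a negative interaction in 10 of 10 tested genes, with a median of -0.36, none called and 8 at an unadjusted p under 0.05, against 10.4% of all genes. These genes were measured in the same livers and are not independent. Over all settings their median ran from -0.46 to -0.15, the latter among animals 54 to 85. Their summed level ran from 1097 through 1349 to 1481 CPM in T3+T4, from 1253 through 1463 to 1572 CPM in T3, from 1206 through 1370 to 1536 CPM in T4 and from 896 through 1242 to 1444 CPM in vehicle livers. The lowest vehicle sums were 896 CPM in animal 37 and 975 CPM in animal 38. The part of Kupffer cells in the result was not tested, and in bulk liver fewer cells of a type and less RNA per cell cannot be told apart. The calls of Arl11 and Msr1 each held in 19 of 26 fits without 1 library. Both were lost without vehicle animal 37, T4 animals 46 or 71, or T3 animals 61, 64 or 65. Over all settings Arl11 ran from -1.92 to -1.48 and Msr1 from -0.82 to -0.52. Among the 6 negative genes the highest adjusted p in any alternative was 0.921.

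In the 6 other genes with a positive interaction, T4 had a downward effect without T3 and an upward one beside T3. Only 1 of these 12 effects passed the test, a fall of 5330417C22Rik after T4 alone (background of lower calls 0.199%). Against vehicle, 4 of the 6 genes fell after T3 alone (background of lower calls 3.24%). The largest value was that of Ncam2, a neural cell adhesion molecule, which ran from 3.36 through 8.08 to 16.4 CPM in T3+T4, from 2.12 through 3.58 to 5.80 CPM in T3 and from 2.29 through 4.62 to 8.26 CPM in T4 livers. Its vehicle livers had 5.52, 7.68, 9.16, 13.2 and 13.7 CPM. The ranges of all groups overlapped, T3 and vehicle livers only at their ends. Its interaction was 2.25 ± 0.45 (adjusted p = 0.0276), with T4 effects of 1.21 ± 0.32 beside T3 and -1.04 ± 0.31 without it (adjusted p = 0.105 and 0.124).

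5330417C22Rik, named Elapor1 in RefSeq, ran from 17.6 through 29.8 to 39.2 CPM in T3+T4, from 12.05 through 24.7 to 32.3 CPM in T3 and from 26.2 through 32.1 to 42.7 CPM in T4 livers. Vehicle livers had 46.7, 54.5, 64.9, 87.98 and 89.3 CPM, above every T3+T4, T3 and T4 liver. The gene fell after T4 alone (-1.06 ± 0.20, adjusted p = 0.0135) and after T3 alone (-1.57 ± 0.22, adjusted p = 5.55e-05). T4 beside T3 gave 0.32 ± 0.21 (adjusted p = 0.526), and the interaction was 1.37 ± 0.29 (adjusted p = 0.0358). Either hormone alone lowered the gene, and adding T4 to T3 gave no change past the test.

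The other positive genes differed by small factors. Aox3, an aldehyde oxidase of liver, averaged 195 ± 22.7 CPM in T3+T4, 163 ± 25.1 CPM in T3, 181 ± 13.2 CPM in T4 and 229 ± 20.3 CPM in vehicle livers (SD, n = 7, 6, 8 and 5), with an interaction of 0.59 ± 0.12 (adjusted p = 0.0336). Ssbp3, a single-stranded DNA binding protein, averaged 64.0 ± 3.93, 49.7 ± 8.15, 57.2 ± 4.71 and 67.3 ± 7.58 CPM in T3+T4, T3, T4 and vehicle livers (interaction 0.60 ± 0.12, adjusted p = 0.0354). Mblac2, which has a metallo-beta-lactamase domain, averaged 29.7 ± 4.37, 22.3 ± 3.86, 21.6 ± 3.24 and 29.1 ± 3.60 CPM in the same order (0.84 ± 0.17, adjusted p = 0.0276). Mospd2, a membrane protein of the endoplasmic reticulum, averaged 91.7 ± 7.27, 76.3 ± 9.12, 73.2 ± 8.07 and 88.6 ± 7.53 CPM (0.54 ± 0.11, adjusted p = 0.0319). In Mblac2 and Mospd2 the T3+T4 and vehicle means were close, and each single hormone gave a lower mean. The calls of the 6 positive genes held in 5 to 18 of the 26 fits without 1 library, and their highest adjusted p in any alternative was 0.929.

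**Figure D2:**
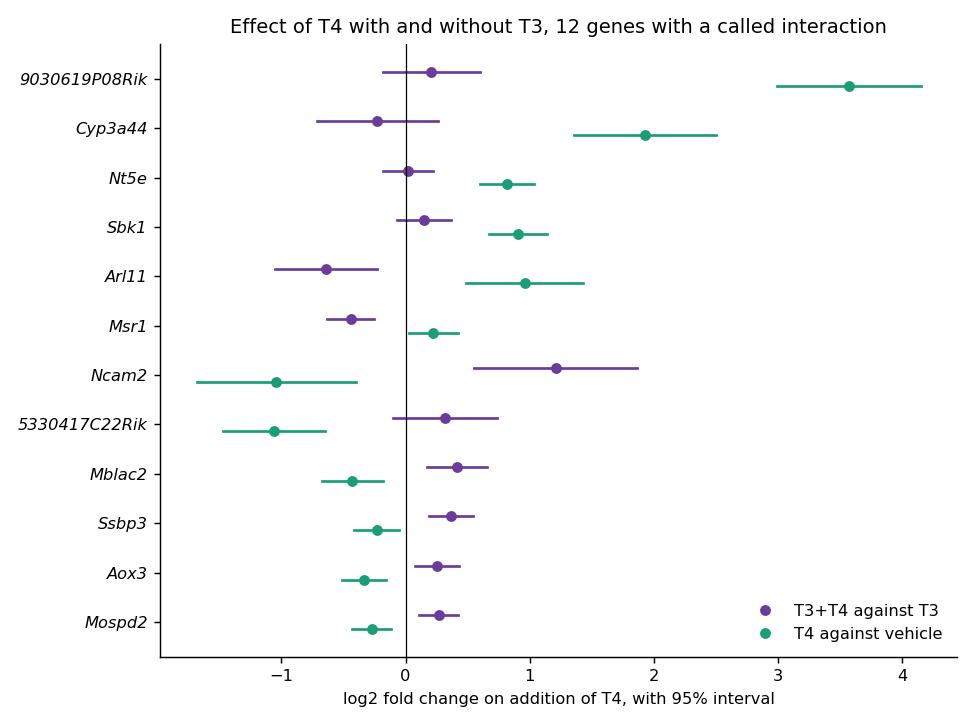
Log2 fold change on addition of T4 in T3-treated livers (T3+T4 against T3, upper point) and in livers without T3 (T4 against vehicle, lower point) for the 12 called genes outside the pancreatic group, with 95% intervals. For 9030619P08Rik the points lie at 0.21 and 3.57; the 6 positive genes have points on opposite sides of 0.

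The 11 remaining called genes are pancreatic, with interactions of 7.68 to 10.97 (adjusted p from 0.027 to 0.0416). They are Cel (bile salt-stimulated lipase), Clps (colipase), the proteases and protease precursors Ctrb1, Cpa1, Cpb1, Cela3b, Prss2, Try5 and 2210010C04Rik, the ribonuclease Rnase1 and the secreted lectin Reg1. Of these, 6 are members of the acinar marker list. Cel was at 0.147, 0.298, 0.319, 3.17, 15.8, 31.8 and 49.1 CPM in T3+T4 livers and at 0.184, 1.01, 1.91, 9.92 and 45.0 CPM in vehicle livers, while it did not exceed 0.298 CPM in T3 and 1.05 CPM in T4 livers. High values came from single livers of both the T3+T4 and the vehicle group. Over all 11 genes the highest level was 51.9 CPM in T3+T4, 0.895 in T3, 6.29 in T4 and 62.0 CPM in vehicle livers. Because the T3 livers stand at or near the lowest count of the table, these fitted log2 values depend on that floor and are no measure of fold. A mean of at least 5 CPM over 9 acinar markers was reached by T3+T4 animals 78, 79 and 85 and by vehicle animals 37 and 2019, and by no T3 or T4 library. This mean ran from 0.423 through 0.964 to 20.1 CPM in T3+T4, from 0.344 through 0.635 to 1.67 CPM in T3, from 0.268 through 0.408 to 1.46 CPM in T4 and from 0.471 through 1.65 to 21.99 CPM in vehicle livers. Without these libraries and 1 control library over the same level, the whole table gave 1 called interaction, 9030619P08Rik (-3.10, adjusted p = 0.00287).

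Skeletal muscle genes had negative interactions, none past the test. A muscle mean of at least 5 CPM was found in T3+T4 animals 79 and 80, T3 animals 60 and 64 and T4 animals 54, 69 and 71, and in no vehicle library. The muscle mean ran from 0.319 through 0.729 to 9.68 CPM in T3+T4, from 0.612 through 2.83 to 43.4 CPM in T3, from 0.313 through 2.57 to 27.5 CPM in T4 and from 0.269 through 0.403 to 1.18 CPM in vehicle livers. The 6 muscle genes tested had a median interaction of -6.21 with none called, and creatine kinase Ckm had -6.93 ± 1.76 (adjusted p = 0.132). Leaving out the muscle libraries alone again left 9030619P08Rik as the single call (-3.42, adjusted p = 0.000156). Leaving out both kinds removed 4 T3+T4, 2 T3, 3 T4 and 2 vehicle livers and left 0 calls. The 6 negative genes then had -3.14 (9030619P08Rik), -2.08 (Cyp3a44), -1.58 (Arl11), -0.83 (Nt5e), -0.82 (Msr1) and -0.73 (Sbk1). The part of the smaller groups in the lost calls was not tested. Of 9 acinar list members tested in the interaction, 6 were called and the median was 8.33, while Cela1 and Amy2a5, which were present in all livers, were left out of the acinar mean.

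**Figure D3:**
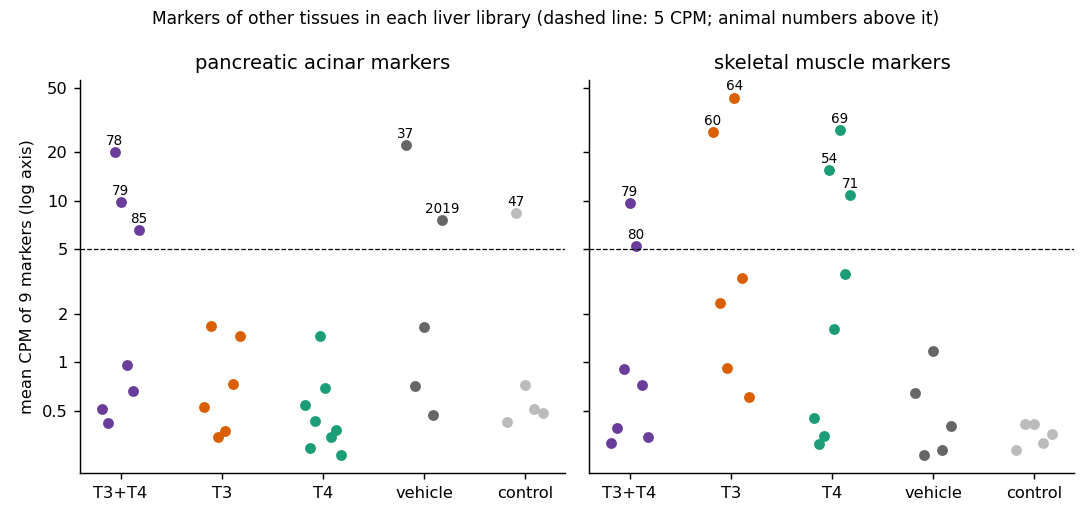
Mean CPM (log axis) of 9 pancreatic acinar and 9 skeletal muscle markers in each library, by group, with animal numbers above the dashed line at 5 CPM. Acinar markers stand out in single T3+T4 and vehicle livers and muscle markers in single T3+T4, T3 and T4 livers. Control libraries are shown for completeness.

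Genes that respond to both hormones were picked from a fit without an interaction term over the 26 libraries. In this fit any interaction counts as spread, which makes a call of such a gene less likely. In it T3 changed 2509 of 16966 genes (14.8%, with 6.59% higher and 8.2% lower) and T4 changed 29 (0.171%, with 0.118% higher and 0.053% lower), of which 27 were called for both. Both hormones raised 20 of the 27 and lowered 7, and none went opposite ways. None of the 27 was called in the interaction, where 0.135% of all genes were. With so few genes and this way of picking them, that does not show that the effects multiply. The number called for T4 ranged from 0 (without T3 animal 64) to 105 (without T3 animal 60) over fits without 1 library.

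Thrsp (Spot 14), a classical thyroid hormone target in lipogenesis, was one of the 20. It ran from 9.81 through 46.5 to 142 CPM in T3+T4, from 1.72 through 5.33 to 21.6 CPM in T3 and from 1.93 through 4.81 to 25.5 CPM in T4 livers, and was 1.62, 2.29, 2.39, 3.83 and 4.24 CPM in vehicle livers. The T3+T4 livers were the highest as a group but spread over more than a factor of 10. The mean was 66.2 ± 54.2 CPM in T3+T4 livers (SD, n = 7), and the single effects would give 21.2 CPM as a product and 12.8 CPM as a sum. With this spread the interaction was 1.64 ± 1.11 (95% interval -0.63 to 3.91, adjusted p = 0.639). T4 changed Thrsp by 3.05 ± 0.67 beside T3 and 1.41 ± 0.86 without it, neither past the test (adjusted p = 0.0557 and 0.527).

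Aacs and Tkt were the only genes called for T4 beside T3, and both were higher in T3+T4 than in T3 livers. Aacs encodes acetoacetyl-CoA synthetase, which turns ketone bodies into substrate for lipid synthesis, and ran from 19.95 through 29.2 to 54.4 CPM in T3+T4, from 7.02 through 12.9 to 20.3 CPM in T3 and from 8.54 through 14.0 to 20.3 CPM in T4 livers, against 6.81, 7.44, 7.68, 9.97 and 11.5 CPM in vehicle livers. T4 changed it by 1.34 ± 0.22 beside T3 (adjusted p = 0.0197) and by 0.65 ± 0.24 without it (adjusted p = 0.234). Tkt, transketolase of the pentose phosphate pathway, ran from 99.1 through 111 to 121 CPM in T3+T4 livers, entirely above the T3 livers at 72.7, 84.9 and 95.001 CPM (lowest, median and highest). T4 livers had 82.30, 94.98 and 99.86 CPM by the same measures, and vehicle livers 77.2, 78.4, 83.8, 87.2 and 89.5 CPM. Its T4 effect was 0.37 ± 0.06 beside T3 (adjusted p = 0.0197) and 0.16 ± 0.06 without it (adjusted p = 0.286). The interactions were 0.69 ± 0.33 for Aacs and 0.21 ± 0.09 for Tkt, and neither passed the test (adjusted p = 0.463 and 0.409). The count of genes called for T4 beside T3 was 0 without T3 animal 61 or T3+T4 animals 72, 84 or 85, and 110 without T3+T4 animal 78.

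In Trim7 and Tlcd2, also raised by both hormones, the T3+T4 mean was close to the sum of the single effects. Trim7, a ubiquitin ligase, ran from 22.3 through 41.5 to 53.6 CPM in T3+T4, from 21.1 through 21.96 to 36.1 CPM in T3 and from 12.8 through 16.8 to 26.7 CPM in T4 livers, and was 4.01, 5.05, 5.53, 7.21 and 10.3 CPM in vehicle livers. Its T3+T4 mean of 39.7 ± 11.8 CPM compares with 35.3 CPM for the sum and 65.7 CPM for the product. Tlcd2, a membrane protein with a TLC domain, averaged 204 ± 29.9 CPM in T3+T4 livers against a sum of 216 and a product of 375 CPM. Its group means were 155 ± 22.6 CPM in T3, 104 ± 25.3 CPM in T4 and 43.0 ± 16.7 CPM in vehicle livers. The interactions were -0.72 ± 0.31 for Trim7 (adjusted p = 0.403) and -0.88 ± 0.23 for Tlcd2 (adjusted p = 0.138). Dio1 also lay nearer to the sum, with a T3+T4 mean of 187 ± 42.7 CPM against 157 CPM for the sum and 364 CPM for the product. The remaining named genes raised by both were H2-Q1, a class I histocompatibility gene (interaction 0.42 ± 0.31), the immune checkpoint molecule Cd276 (-0.25 ± 0.37) and the G protein subunit Gna14 (0.50 ± 0.43).

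**Figure D4:**
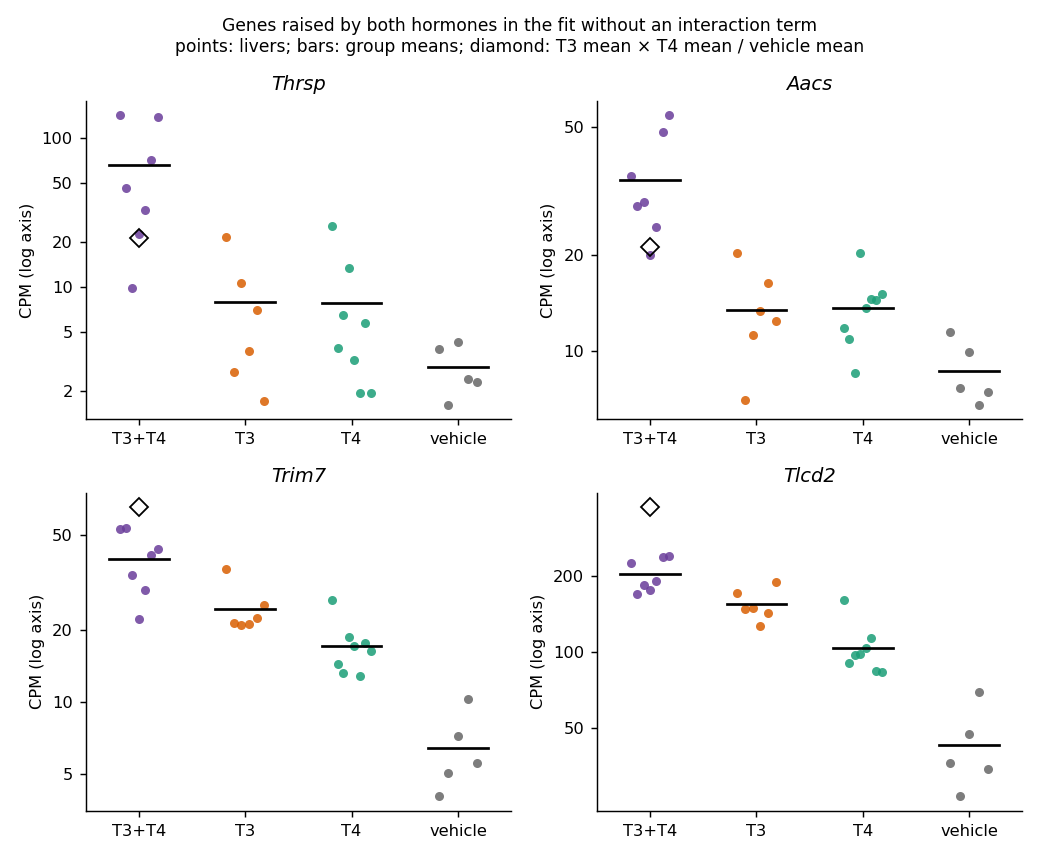
Level of Thrsp, Aacs, Trim7 and Tlcd2 in each liver (CPM, log axis) by group, with bars at the group means and an open diamond at the T3+T4 level that the product of both single effects would give. The T3+T4 means of Thrsp (66.2 CPM) and Aacs (34.2 CPM) lie above the diamonds and those of Trim7 (39.7 CPM) and Tlcd2 (204 CPM) below them; none of the 4 interactions passed the test.

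Among the genes lowered by both hormones, Vldlr, a receptor for lipoproteins, ran from 7.90 through 12.8 to 32.8 CPM in T3+T4, from 17.6 through 45.1 to 86.3 CPM in T3, from 43.0 through 65.3 to 152 CPM in T4 livers, and was 102, 109.5, 115, 123 and 198 CPM in vehicle livers. Every T3+T4 liver lay below every T4 liver. The log2 effect of T4 was -1.57 ± 0.36 beside T3 and -0.82 ± 0.33 without it, and the interaction was -0.75 ± 0.49 (adjusted p = 0.626). For the dynein chain gene Dync2li1, the guanylate cyclase gene Gucy2c, the kinase gene Hipk3 and the membrane protein gene Tm4sf4 the interaction lay between -0.06 and -0.02. For Dync2li1 the 95% interval ran from -0.71 to 0.66 and for Tm4sf4 from -0.23 to 0.11. Pla2g12a, a secreted phospholipase, had -0.26 ± 0.20 (adjusted p = 0.687).

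Gene lists were described by counts and medians only. The genes of a list were measured in the same livers and are not independent. Cholesterol synthesis and uptake genes had the highest median interaction outside the pancreatic and sex-linked lists, 0.71 over 24 genes against -0.007 over all genes. None of the 24 was called. A positive value was found in 23, against 48.7% of all genes, and an unadjusted p under 0.05 in 14, against 10.4% of all genes. The median T4 effect was 0.84 beside T3, with 0 of 24 called, and 0.11 without it, with 1 higher (Sc5d). Read the other way, T3 raised 20 of 24 beside T4 (background of higher calls 4.06%) and 3 of 24 without it (3.53%). Lanosterol synthase Lss had 1.03 ± 0.31 (adjusted p = 0.196) and the mevalonate pathway kinase Pmvk 0.57 ± 0.18 (adjusted p = 0.222). The list median stayed between 0.59 and 0.90 in all 41 other settings, most of which share nearly all libraries.

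In the steroid and drug metabolism lists, Akr1c18 had a pattern like that of Cyp3a44. Akr1c18, a steroid dehydrogenase that inactivates progesterone, ran from 38.9 through 43.4 to 77.7 CPM in T3+T4, from 19.03 through 49.6 to 97.8 CPM in T3 and from 10.4 through 22.2 to 31.2 CPM in T4 livers. In vehicle livers it had 1.70, 3.10, 4.01, 4.04 and 4.97 CPM, below every T3+T4, T3 and T4 liver. T4 changed it by -0.10 ± 0.34 beside T3 (adjusted p = 0.927) and by 2.56 ± 0.49 without it (adjusted p = 0.0135). The interaction of -2.67 ± 0.59 missed the threshold (adjusted p = 0.0588) and passed it in 6 of 41 other settings. The 14 genes of its list had a median of 0.24, and the 24 cytochrome P450 genes one of 0.03 with 1 called, Cyp3a44. The estrogen sulfotransferase Sult1e1 had another pattern, with T4 and vehicle means close together. Its interaction was -3.75 ± 1.36 (adjusted p = 0.31), with means of 1.56 CPM in T3+T4, 19.3 in T3, 0.897 in T4 and 0.796 CPM in vehicle livers. The T3 group, with the highest means of Cyp3a44, Cyp3a41a and Sult1e1, was also the group with 5 females of 6. With 1 male in that group a sex covariate separates sex from treatment poorly, and the part of sex was not tested. With sex as a covariate the interaction was -1.905 for Cyp3a41a (adjusted p = 0.331), -3.57 for Sult1e1 (adjusted p = 0.451) and -2.55 for Akr1c18 (adjusted p = 0.111), against -1.95, -3.75 and -2.67 without it. For Cyp3a16 the value with sex was -1.29 (adjusted p = 0.352, edgeR), more negative than the value without sex given above.

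The 17 tested genes known to be induced by thyroid hormone had a median interaction of -0.08 and none called. T3 raised 7 of the 17 beside T4 (4.06% of all genes) and 4 without it (3.53%). Gpd2, the mitochondrial glycerol phosphate dehydrogenase, had -1.03 ± 0.40 (adjusted p = 0.354) and the coactivator Bcl3 -0.72 ± 0.28 (adjusted p = 0.351). Gpd2 ran from 144 through 253 to 298 CPM in T3+T4, from 137 through 211 to 314 CPM in T3, from 135 through 164 to 295 CPM in T4 and from 36.7 through 80.6 to 190.2 CPM in vehicle livers, with overlap between all groups. The 21 lipogenesis genes had a median of 0.12, with values from -1.85 to 1.64 and none called. Fatty acid oxidation, mitochondrial respiration and the cell cycle had medians of -0.07, 0.01 and 0.02 and none called. In the circadian list all 17 values were positive, with a median of 0.28, and again none was called. Granulocyte markers had a median of -1.16 over 9 tested genes, with all values negative and none called. This median was -0.06 without the libraries high in muscle markers. The summed level of the 10 markers ran from 64.1 through 108 to 220 CPM in T3+T4, from 80.2 through 189 to 427 CPM in T3, from 94.6 through 141 to 431 CPM in T4 and from 95.6 through 138 to 326 CPM in vehicle livers.

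**Figure D5:**
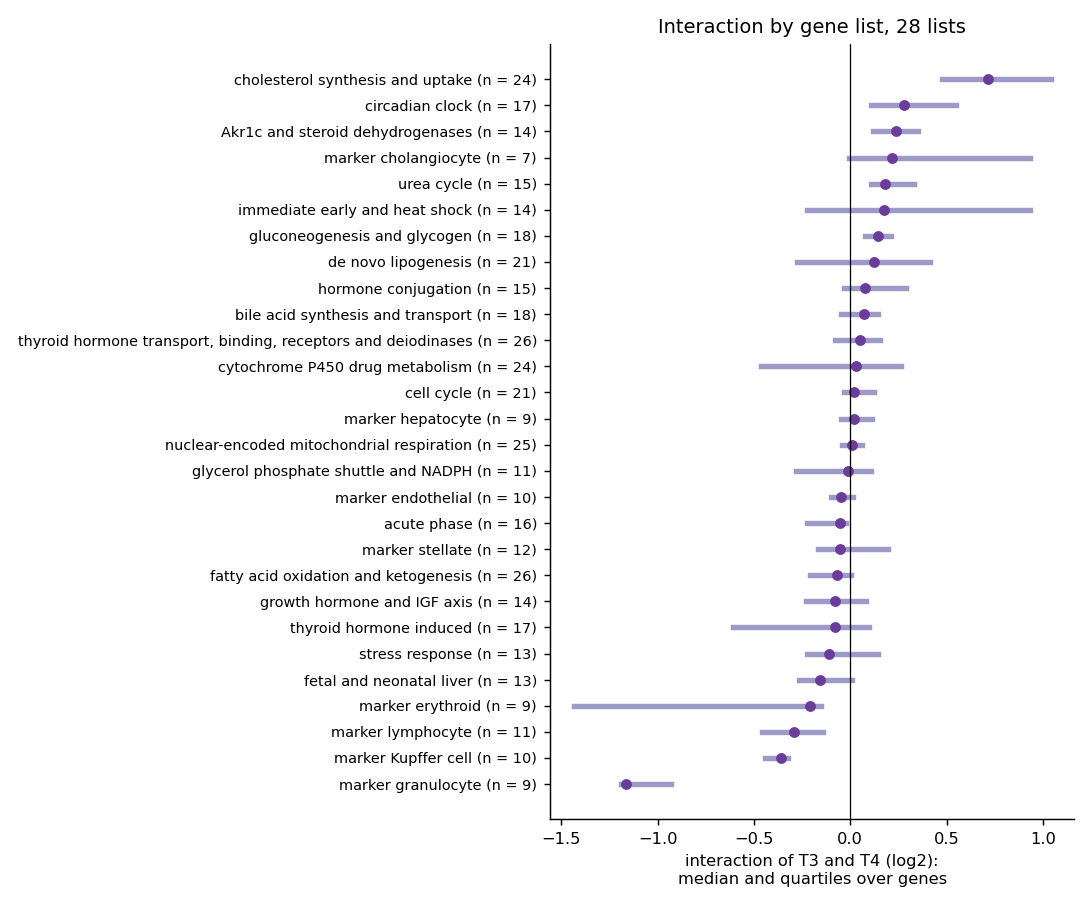
Median (point) and quartiles (bar) of the log2 interaction over the tested genes of 28 lists, with the number of genes; the acinar, muscle and sex-linked lists, whose medians are 8.33, -6.21 and 1.80, are not drawn. Cholesterol genes stand highest at 0.71 and granulocyte markers lowest at -1.16. The granulocyte median was -0.06 without the libraries high in muscle markers, and the other medians run from -0.36 to 0.28.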

How the data were processed

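Stranded mRNA libraries of total liver RNA, per the labels, were read as 1 deposited table of counts per gene, 43629 genes by 31 libraries. The authors' counts have 1 as their lowest value (50.1% of values), so 1 appears to have been added to each. The largest values lie near 2 counts per exonic base, which would cap highly expressed genes. Per the submitters' processing notes bcl2fastq, Trimmomatic, BWA 0.7.10 and DESeq were used, with no role given. These notes name GRCh38, while the deposited column names carry mm10. How strand, shared reads and duplicates were treated is not given in the sources used here. Of the gene IDs, 42462 (97.3%) matched GENCODE M21, whose mm10 coordinates are printed. No 2 libraries were identical.

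edgeR 4.0.16 (R 4.3.3, limma 3.58.1) was run on the counts as deposited: trimmed mean of M values scaling, filterByExpr, quasi-likelihood tests, Benjamini-Hochberg adjustment at 0.05, with control libraries sharing the spread. The steps were tested on simulated counts with the same spread for every gene. These had no differences of sex or other tissue between livers of a group, so they check the steps and not the calls. The fit without interaction used 26 libraries. Acinar and muscle levels were scored as the mean CPM of 9 markers, a level of 5 CPM marking a library. The muscle and acinar genes tested differ from these where the count filter removed members. Alternatives were other scalings and filters, DESeq2 1.42.0, covariates, libraries left out, and corrections for the added 1 and the ceiling. Leaving out acinar or muscle libraries alone was chosen after seeing the data.

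The genes named are the 3 deleted genes, all called interactions, up to 6 genes that both hormones raised or lowered in the fit without interaction, with a mean of at least 5 CPM, and up to 3 genes of each of 31 lists by unadjusted p. Tkt, Aacs, Max and the pancreatic grouping of 11 genes were chosen after their values were seen. The members and lists were chosen with earlier results of these data known. One member of a named list is not reported here.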

Additional observations from a re-analysis of the deposited data

Results flagged for a closer look

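An interaction is a difference between the effects of T4 with and without T3, and 23 genes passed its test. The log2 values were -3.36 for 9030619P08Rik, -2.16 for Cyp3a44, -1.60 for Arl11, -0.80 for Nt5e, -0.75 for Sbk1 and -0.66 for Msr1. They were 2.25 for Ncam2, 1.37 for 5330417C22Rik, 0.84 for Mblac2, 0.60 for Ssbp3, 0.59 for Aox3 and 0.54 for Mospd2. The pancreatic genes had 10.97 (Cel), 9.72 (2210010C04Rik), 9.45 (Prss2), 9.22 (Ctrb1), 8.62 (Cpa1), 8.62 (Clps), 8.44 (Reg1), 8.33 (Cpb1), 8.29 (Rnase1), 7.94 (Cela3b) and 7.68 (Try5).

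In 37 of 180 groups of values, from 45 genes, 1 liver stood apart from its group by the gap to its nearest neighbour. Chance does so in about 1 of 20 groups of normally distributed values, and the genes are not independent. At the lowest counts a single read can set a liver apart. Cel in T3 animal 60, for example, had a count of 2 where the other T3 livers had 1. T4 animal 54 accounted for 11 of the 37. It had 8.21 CPM of Dio2 and 152 CPM of Vldlr, 6.29 CPM of Ctrb1, 1.40 CPM each of 2210010C04Rik, Clps and Reg1, 1.05 CPM each of Cel, Cela3b and Cpb1, 0.874 CPM of Prss2 and 0.699 CPM of Rnase1. T3+T4 animal 78 stood apart in 6, with 51.9 CPM of Ctrb1, 46.5 of Reg1, 22.2 of Cpa1, 18.7 of Cela3b, 10.2 of Try5 and 32.8 CPM of Vldlr. T4 animal 40 did so in 5, with 161 CPM of Tlcd2, 91.0 of Mospd2, 88.6 of H2-Q1, 26.7 of Trim7 and, as the lowest, 36.2 CPM of Pla2g12a.

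T3 animal 60 had 0.298 CPM of Cel, 0.447 of Cela3b, 0.895 of Cpb1 and 36.1 CPM of Trim7. Vehicle animal 37 had 45.0 CPM of Cel, 37.2 of Clps and 19.3 CPM of Rnase1. Vehicle animal 67 had 44.9 CPM of Cyp3a44 and 178.6 CPM of Cyp3a16, and T3+T4 animal 85 had 267.7 CPM of Cyp3a16 and 22.05 CPM of Gna14. Single values were 0.302 CPM of 2210010C04Rik (T3 animal 65), 5.32 of Arl11 (T3 animal 64), 107 of Mospd2 (T3+T4 animal 80) and 198 CPM of Vldlr (vehicle animal 55).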

How the results depend on the processing

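The 23 called genes kept the sign of their interaction in each setting that gave a value for them, 38 to 41 settings per gene. Most settings share nearly all libraries, so kept signs are no separate evidence. Counts of calls and the balance of higher and lower calls moved widely, and the cause was not tested. The 23 interaction calls became 5 without a filter on low counts, 10 with a mean of at least 5 CPM, 109 with DESeq2 (41 positive, 68 negative), 2 with acinar and muscle levels as covariates, 0 among animals 54 to 85, and 1, 1 and 0 without acinar, muscle or either kind of library; leave-one-out counts ran from 1 to 39. The 70 calls for T4 against vehicle became, in the same order of settings, 31 without a filter, 235 with DESeq2, 18 with the covariates, 8 among animals 54 to 85, 5, 11 and 1 without tissue libraries, and 29 with only the 26 libraries; leave-one-out 14 to 102. The 2 calls for T3+T4 against T3 became 10 with the 26 libraries, 155 with DESeq2, 1 with sex and 91 with library total as a covariate, 15 with the ceiling corrected, 18 with tissue covariates, 0 among animals 54 to 85, and 17 and 1 without acinar or muscle libraries; leave-one-out 0 to 110.

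The 1155 calls for T3 against vehicle became 618 with sex, 524 with library total and 724 with tissue covariates, 167 among animals 54 to 85, and 413, 355 and 83 without acinar, muscle or either kind of library; leave-one-out 622 to 1570. The 1469 calls for T3+T4 against T4 became 768 with library total, 798 with tissue covariates, 703 among animals 54 to 85 (441 higher and 262 lower, against 693 and 776 as reported), and 707, 707 and 143 without those libraries; leave-one-out 947 to 1738. In the fit without interaction, the 2509 calls for T3 became 744 with library total, 1560 among animals 54 to 85, and 1543, 1310 and 488 without those libraries; leave-one-out 2107 to 2729. Its 29 calls for T4 became 10 without a filter, 49 at 5 CPM, 256 with DESeq2, 15 with sex, 14 with tissue covariates, 1 among animals 54 to 85, and 5, 8 and 1 without those libraries; leave-one-out 0 to 105.

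With library totals alone as scaling, higher and lower calls were 801 and 408 for T3 against vehicle (602 and 553 as reported), 58 and 26 for T4 against vehicle (36 and 34), and 1387 and 1207 for T3 in the fit without interaction (1118 and 1391). No paired analysis was possible because each animal number belongs to 1 library only.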

Other observations

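Max, a partner of the Myc transcription factors, was called only with acinar and muscle levels as covariates (-0.47, adjusted p = 0.0272), against -0.28 ± 0.08 (adjusted p = 0.144) without them. It was chosen after its values were seen. The nuclear receptor Nr5a2 had an interaction of 0.48 (adjusted p = 0.151) and fell after T4 alone (-0.56, adjusted p = 0.00387). The amino acid transporter Slc7a5 had -0.79 (adjusted p = 0.222) and the stress hormone Gdf15 2.12 (adjusted p = 0.186).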
